A study of Mus musculus with 24 samples.

Results

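Npas4, Arc, Homer1, Nptx2, Dusp1, Dusp6, Btg2, Sik1 and Ier2 are 9 genes that neurons switch on within minutes to hours of firing, and they were followed across RNA sequencing libraries of mouse nucleus accumbens. They were chosen by name, as an activity-induced transcription factor, synaptic effectors, and phosphatase, kinase and antiproliferative genes that feed back on the signal. Earlier results of these data were known when they were chosen. All 9 were found by Ensembl identifier among the 37991 genes of the count table, and all 9 passed the filter on low counts in both experiments. The 24 libraries formed 8 groups of 3. The protocol describes a library as pooled mRNA of 4 mice, while the design text counts 3 mice in a group, so n counts libraries and whether each is a pool or a single mouse is not settled by the labels. The wild-type experiment held stressed females, control females, stressed males and control males of the strain C57BL/6J, with no virus. In the second experiment every mouse was stressed and carried the genotype Dnmt3a2lox/2lox, an allele of the DNA methyltransferase gene Dnmt3a that Cre recombinase can delete. These mice received either AAV-CRE, which the study's design describes as expressing Cre with GFP, or AAV-GFP, an adeno-associated virus that expresses the fluorescent protein GFP as control. The females and males with AAV-CRE, and the females and males with AAV-GFP, are called CRE and GFP groups here. The stress is named in the title as subchronic variable stress. How long it lasted, how soon afterwards tissue was taken, the age of the mice and the promoter that drove Cre are not stated in the sources read. The protocol names dorsal striatum beside the nucleus accumbens in its description of the punches.

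When a neuron fires, calcium enters and activates kinases that phosphorylate transcription factors already present, among them CREB and SRF, and these switch on immediate early genes without new protein synthesis. Npas4 is a neuronal transcription factor that depends closely on calcium entry, while Arc, Homer1 and Nptx2 encode proteins that act at synapses. Dusp1 and Dusp6 encode phosphatases that switch off MAP kinases, Sik1 encodes a kinase that restrains the CREB coactivators, and Btg2 and Ier2 encode small regulators of growth and transcription. In the nucleus accumbens, a hub of reward and motivation, such genes are widely used as readouts of recent activity in medium spiny neurons.

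Promoter windows of 300 bases (250 before and 50 after the start of the gene, RefSeq, build GRCm38.p6) were at hand for 5 of the 9 genes, with 2 windows for Homer1, 6 in all. They were searched on both strands for the cAMP response element TGACGTCA, which CREB binds, for its short form TGACG, which lies within the full element, for the CArG box that SRF binds, for the AP-1 site TGANTCA that Fos and Jun proteins bind, and for the TATA box TATAAA. No window was at hand for Arc, Nptx2, Sik1 and Ier2. The 4 windows below are shown because they held at least 1 of the first 2 motifs. Capitals mark TGACG or TGACGTCA on either strand.
Npas4: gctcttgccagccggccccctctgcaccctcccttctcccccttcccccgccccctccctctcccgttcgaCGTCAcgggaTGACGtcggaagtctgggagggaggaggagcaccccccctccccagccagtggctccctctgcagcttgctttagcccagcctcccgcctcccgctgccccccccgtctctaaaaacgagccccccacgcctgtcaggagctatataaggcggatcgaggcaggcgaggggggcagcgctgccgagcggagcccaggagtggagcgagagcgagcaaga
Homer1, first promoter: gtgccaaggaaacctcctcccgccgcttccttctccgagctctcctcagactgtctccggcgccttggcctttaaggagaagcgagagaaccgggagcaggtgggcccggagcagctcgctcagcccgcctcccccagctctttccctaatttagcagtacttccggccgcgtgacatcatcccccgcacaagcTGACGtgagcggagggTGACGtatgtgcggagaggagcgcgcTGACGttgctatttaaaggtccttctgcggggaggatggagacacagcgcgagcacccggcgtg
Dusp1: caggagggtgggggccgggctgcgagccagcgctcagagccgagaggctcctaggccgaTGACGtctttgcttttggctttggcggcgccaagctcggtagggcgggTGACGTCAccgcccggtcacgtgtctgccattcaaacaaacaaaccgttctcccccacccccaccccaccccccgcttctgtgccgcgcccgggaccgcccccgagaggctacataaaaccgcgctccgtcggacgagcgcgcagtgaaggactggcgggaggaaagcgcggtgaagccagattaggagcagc
Btg2: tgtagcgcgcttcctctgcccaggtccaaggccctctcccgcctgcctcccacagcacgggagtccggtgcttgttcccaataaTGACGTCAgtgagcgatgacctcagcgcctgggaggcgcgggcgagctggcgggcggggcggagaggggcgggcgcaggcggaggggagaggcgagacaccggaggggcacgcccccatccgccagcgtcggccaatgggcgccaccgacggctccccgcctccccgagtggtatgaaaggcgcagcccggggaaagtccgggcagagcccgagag
The windows lie at chr19:4989922-4990221 on the minus strand for Npas4, chr13:93303507-93303806 on the plus strand for Homer1, chr17:26508423-26508722 on the minus strand for Dusp1 and chr1:134079106-134079405 on the minus strand for Btg2. Dusp1 held the full element at -143 to -136 and Btg2 at -166 to -159, counted from the start of the gene, and 1.79% of 32851 promoters held it. Npas4 held the short form on opposite strands at -179 to -175 and at -169 to -165. Dusp1 held a further short form at -191 to -187. The first Homer1 promoter held it at -56 to -52, -40 to -36 and -14 to -10, and 20.8% of all promoters held it at least once. The CArG box (1.63% of promoters), the AP-1 site (7.81%) and the TATA box (13.6%) were not among the letters of these 6 windows. The Dusp6 window and the second Homer1 window held none of the motifs searched.

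Total counts were 7116123 to 12145551 per library in the wild-type and 28132563 to 59829070 in the floxed experiment, so the same level rested on more counts in floxed mice. Levels are given in CPM (counts scaled to a common library size with TMM factors). Medium spiny neuron markers were high in every library, with the dopamine receptor genes Drd1 at 138 to 335 CPM and Drd2 at 93.2 to 352 CPM. Libraries differed in RNA of neighbouring tissue. The 15 cortical excitatory neuron markers summed to 724.5 to 1157 CPM in CRE males, against 387 to 440 CPM in GFP males, and Slc17a7, the cortical glutamate transporter, was at 428, 409 and 168 CPM in CRE males against 1.29, 2.76 and 15.3 CPM in GFP males. The 14 medium spiny neuron markers summed to 3834 to 7399 CPM in CRE males and 7343 to 7925 CPM in GFP males. The 12 choroid plexus and ependymal markers summed to 94.5 to 2131 CPM in CRE males, against 67.7 to 87.8 CPM in GFP males, and spread from 54.9 to 2729 CPM in control males. No marker of these lists was at 0 in a whole group. CRE female library 2 stood apart in several activity genes, with Fos at 31.0 CPM against 11.6 and 8.43 CPM in the other CRE females. The CRE results of the 9 genes in females and their floxed sex differences are given with and without that library where it moved them.

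Among the 9 genes, Arc and Homer1 were the most abundant per length of transcript and Ier2 the least. Divided by exon length in kilobases (GENCODE M21), Arc averaged 12.04 to 34.3 CPM per kb over the 8 groups, Homer1 14.2 to 16.7 and Ier2 0.737 to 1.36. Ranked per length within each library, Arc was first or second of the 9 in all 24 and Ier2 was last in all 24. Arc varied most between groups while Homer1 stayed nearly level. A gene count for Homer1 adds the short, activity-induced transcript and the long, constitutive ones, which cannot be told apart here. Ier2 rested on 9 to 28 counts per wild-type library, so its values there are the least precise. Exons of none of the 9 overlap those of another gene in the annotation.

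In stressed wild-type mice the activity genes lay below control in both sexes. The widest gaps were in Npas4 (2.2-fold lower in females), in Arc and, in males, in Btg2, while those in Dusp1, Sik1 and Dusp6 were smaller. Fitted fold changes were negative for 9 of 9 genes in females, where 51.3% of all 15249 genes tested were negative, and for 9 of 9 in males, where 50.3% were. In 6 of 9 genes (Npas4, Arc, Dusp1, Dusp6, Btg2 and Sik1) every stressed library lay below every control library in both sexes, against 0.348% of all genes. Within females alone this held for 7 of 9 (2.58% of genes), Nptx2 being the further one, and within males for 6 of 9 (4.24%). Homer1 and Ier2 overlapped in both sexes. Because the 9 genes were chosen with earlier results of these data known, these counts are no independent evidence of direction. Averaged over the sexes, Npas4 was the gene of the 9 that passed the test at an adjusted p below 0.05, which 0.0131% of genes did. In bulk tissue, fewer cells of a type and less RNA per cell cannot be told apart.

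Npas4 (ENSMUSG00000045903) was at 11.1, 13.2 and 11.96 CPM in stressed females, against 31.0, 28.2 and 20.7 CPM in control females. In males it was at 12.3, 9.12 and 10.2 CPM under stress, against 19.1, 20.5 and 17.9 CPM in controls. Stressed libraries of both sexes gathered between 9.12 and 13.2 CPM, and the control females lay above the control males, narrowly without overlap. The log2 fold change was -1.13 (SE 0.18, 95% interval -1.51 to -0.75) in females and -0.86 (SE 0.18, -1.24 to -0.48) in males, with adjusted p of 0.316 and 1 in edgeR's quasi-likelihood test over all genes. Averaged over the sexes, Npas4 fell to 11.3 ± 1.5 CPM in stressed mice, against 22.9 ± 5.37 CPM in controls (SD, n = 6 each), a log2 change of -1.0 (SE 0.12, adjusted p = 0.0156). Libraries of the wild-type females that carry the same replicate number deviated together, and with that number as a block Npas4 passed in females (log2 -1.12, adjusted p = 0.00639). Without the block, Npas4 passed in females in 1 of 12 refits that each left out 1 library. That was the refit without control female library 3 (log2 -1.29, adjusted p = 0.0440), and the log2 change ranged from -1.29 to -1.01 over the 12.

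The averaged Npas4 call did not hold in every refit. Of 12 fits that each left out 1 library, 5 kept it and all 12 had a log2 change from -1.07 to -0.93. The adjusted p was 0.0812 without control female library 2, 0.0587 without control male library 1 and 0.0815 without control male library 2. It was 0.0576 without stressed female library 2, 0.0815 without stressed female library 3, 0.0711 without stressed male library 2 and 0.108 without stressed male library 3. The size of the difference therefore moved little while the adjusted p lay near its threshold. With a covariate for the cortical markers, the log2 change was -0.92 and the adjusted p 0.509. With the choroid plexus score it was -0.99 and 0.0323.

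**Figure D1:**
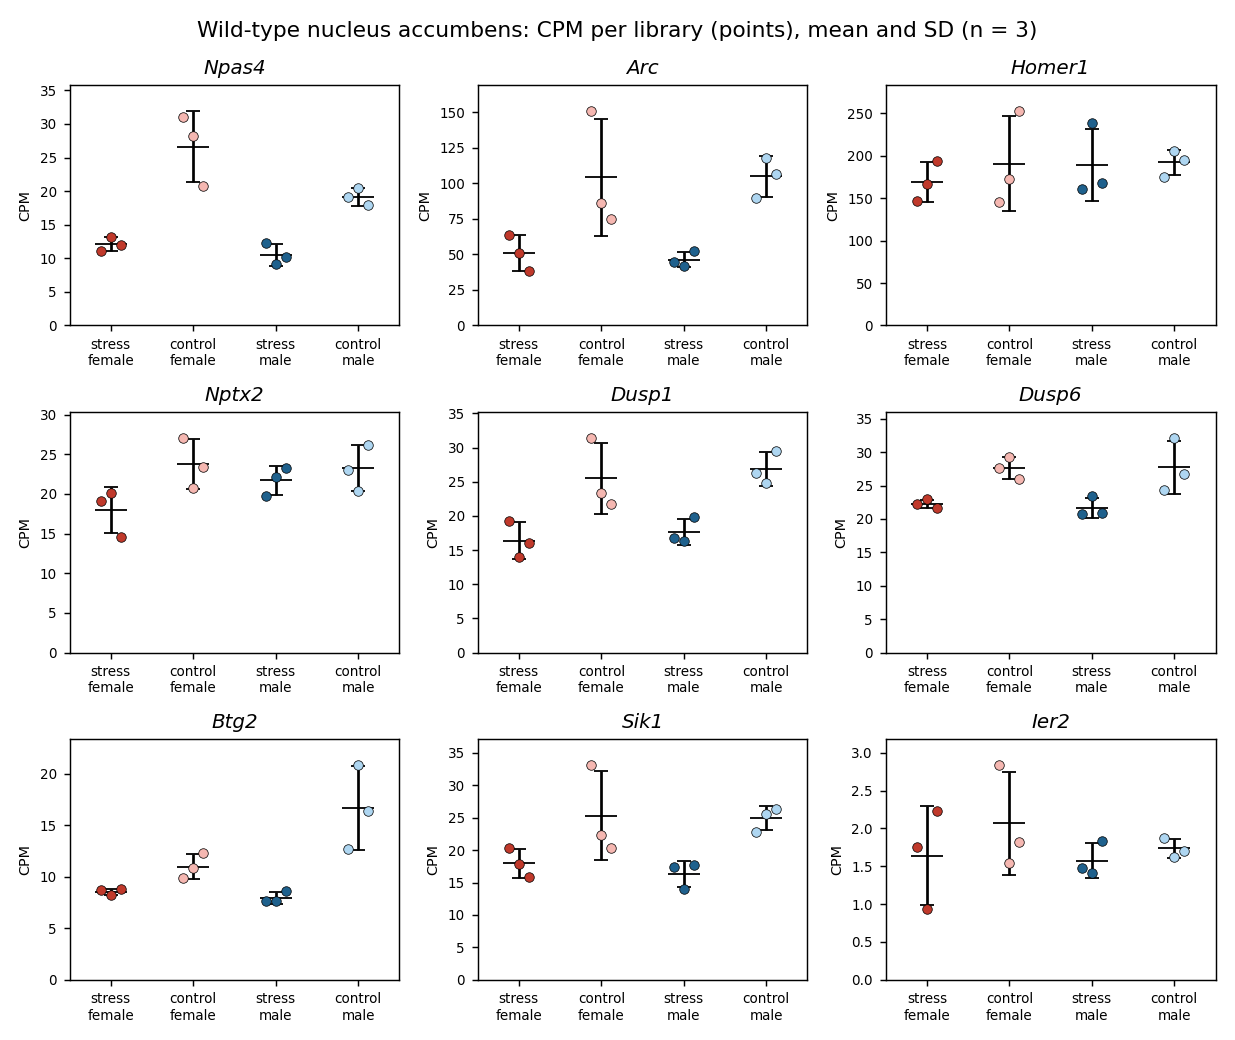
Levels of the 9 genes in CPM (linear axis from 0) in wild-type nucleus accumbens, with stressed females, control females, stressed males and control males from left to right; each point is a library, and bars are the mean and SD of 3. Npas4 stood at 9.12 to 13.2 CPM in the 6 stressed libraries and at 17.9 to 31.0 CPM in the 6 control libraries, while the Homer1 groups overlapped.

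The synaptic effectors split. Arc (ENSMUSG00000022602), whose protein removes AMPA receptors from synapses, was at 63.9, 51.0 and 38.5 CPM in stressed females, against 151, 86.4 and 75.3 CPM in control females. In males Arc was at 44.8, 42.0 and 52.3 CPM under stress, against 89.8, 118 and 107 CPM in controls. The groups did not overlap in either sex, though control female library 1 lay far above the other control females. The log2 change was -1.03 (SE 0.25) in females and -1.18 (SE 0.25) in males, each with an adjusted p of 1, and -1.10 (SE 0.18, adjusted p = 0.131) on average. With the replicate block Arc passed in females (log2 -0.99, adjusted p = 0.00417), and in 1 of 12 refits, without control female library 3, its average over the sexes passed (log2 -1.19, adjusted p = 0.0375). Without control female library 1 the log2 change in females was -0.66, against -1.03 with it.

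Homer1 (ENSMUSG00000007617), a scaffold that ties group I metabotropic glutamate receptors to Shank proteins, did not follow Arc. It was at 147, 167 and 194 CPM in stressed females against 145, 173 and 253 CPM in control females, and at 161, 239 and 168 CPM in stressed males against 176, 206 and 195.5 CPM in control males. The log2 change was -0.17 (95% interval -0.61 to 0.27) in females and -0.02 (-0.46 to 0.42) in males. It was positive without control female library 3 (0.09) and in 4 of 12 refits in males (0.00 to 0.08, without control male library 2 or 3 or stressed male library 1 or 3). Nptx2 (ENSMUSG00000059991), a secreted pentraxin that clusters AMPA receptors, was at 19.1, 20.1 and 14.6 CPM in stressed females against 27.1, 20.8 and 23.3 CPM in control females, close but without overlap. In males it was at 19.7, 22.1 and 23.2 CPM under stress against 23.1, 20.4 and 26.2 CPM in controls, with overlap. Its log2 change was -0.40 (SE 0.16, adjusted p = 1) in females and -0.10 (SE 0.16, adjusted p = 1) in males, where it was 0.01 without control male library 3.

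The MAP kinase phosphatases were lower by smaller steps. Dusp1 (ENSMUSG00000024190), a nuclear phosphatase that inactivates p38, JNK and ERK, was at 19.2, 14.0 and 16.0 CPM in stressed females against 31.4, 23.4 and 21.7 CPM in control females. In males it was at 16.8, 16.4 and 19.9 CPM under stress against 26.3, 24.8 and 29.5 CPM in controls. Its log2 change was nearly the same in females (-0.64, SE 0.18) and males (-0.60, SE 0.17), with an average of -0.62 (SE 0.12, adjusted p = 0.417). Dusp6 (ENSMUSG00000019960), a cytoplasmic phosphatase specific for ERK, had tight groups. It was at 22.2, 22.9 and 21.7 CPM in stressed females against 27.7, 29.2 and 26.0 CPM in control females, and at 20.7, 23.4 and 20.8 CPM in stressed males against 24.3, 32.1 and 26.7 CPM in control males. The steps were without overlap and small, with a log2 change of -0.31 (SE 0.14) in females and -0.36 (SE 0.13) in males, each with an adjusted p of 1.

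Btg2 (ENSMUSG00000020423), an antiproliferative protein that also promotes mRNA deadenylation, showed the widest gap between the sexes. It was at 8.67, 8.23 and 8.76 CPM in stressed females against 9.83, 10.8 and 12.3 CPM in control females. In males it was at 7.65, 7.60 and 8.64 CPM under stress against 12.7, 20.8 and 16.3 CPM in controls. Stressed mice of both sexes had like levels, and control males lay above control females without overlap. The log2 change was -0.36 (SE 0.19, adjusted p = 1) in females and -1.06 (SE 0.18, adjusted p = 0.479) in males. Control male libraries 2 and 3 also had the most choroid plexus RNA (Ttr at 958 and 2285 CPM), and with that score as a covariate the male log2 change was -0.97, the adjusted p 1.

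Sik1 (ENSMUSG00000024042), a salt-inducible kinase that keeps CREB coactivators out of the nucleus, was at 20.3, 17.8 and 15.9 CPM in stressed females against 33.1, 22.3 and 20.4 CPM in control females. In males Sik1 was at 17.4, 14.0 and 17.7 CPM under stress against 22.9, 25.6 and 26.3 CPM in controls. The female groups nearly met, with 20.3 CPM as the highest stressed and 20.4 CPM as the lowest control library, and the male groups stood clear of each other. The log2 change was -0.49 (SE 0.19) in females and -0.61 (SE 0.19) in males, each with an adjusted p of 1. Without control female library 1 the female value was -0.25. Ier2 (ENSMUSG00000053560), an immediate early regulator of transcription, was at 1.76, 0.938 and 2.23 CPM in stressed females against 2.84, 1.54 and 1.83 CPM in control females, and at 1.47, 1.41 and 1.84 CPM in stressed males against 1.88, 1.63 and 1.70 CPM in control males. Its groups overlapped, and at this depth a difference was not detectable (95% interval of the log2 change -1.11 to 0.38 in females and -0.88 to 0.60 in males).

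Read one sex at a time, the main edgeR fit, with the filter on low counts and no replicate block, called none of the 9 genes. In females, edgeR with the replicate number as a block called 2 (Npas4 and Arc) and 5 genes in all. The labels do not say what a shared number marks. With neither block nor filter on low counts, edgeR also called 2 in females. In the main fit of females 0.0% of genes were called, and 6 of the 9 were lower at an unadjusted p below 0.05 (0.931% of genes). DESeq2 called 1 (Npas4, adjusted p = 1.75e-04) and limma-voom 0. In males the main fit called 0.00656% of genes, and 6 of the 9 were lower at an unadjusted p below 0.05 (1.88% of genes). DESeq2 called 2 (Btg2, adjusted p = 0.00739, and Arc, adjusted p = 0.0259) and limma-voom 0. Without the filter on low counts edgeR called Arc (adjusted p = 5.96e-05) and Btg2 (adjusted p = 0.0277) in males. In the average of the sexes, 7 of 9 were lower at an unadjusted p below 0.05 (1.86% of genes), and DESeq2 called Npas4, Arc, Btg2 and Dusp1. Medium spiny neuron markers summed to 6930 to 9413 CPM in stressed females against 8205 to 10910 CPM in control females, and to 7432 to 8581 CPM in stressed males against 8701 to 9652 CPM in control males. Of these 14 markers 13 had a negative fold change in each sex, with a median log2 change of -0.15 and none called. The median over the 9 activity genes was -0.40 in females and -0.60 in males, and over all genes -0.01 and 0.00. Cortical markers summed to 522.2 to 617.6 CPM in stressed females against 563 to 827 CPM in control females. Of the 13 cortical markers tested in females, 11 had a negative fold change, with a median log2 change of -1.01 and 6 lower at an unadjusted p below 0.05. In males that median was 0.06, and there the choroid plexus markers were lower, with a median of -2.57 and 8 of 12 at an unadjusted p below 0.05. None of these markers was called. The part of these markers in the result was not tested beyond the covariate fits.

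**Figure D2:**
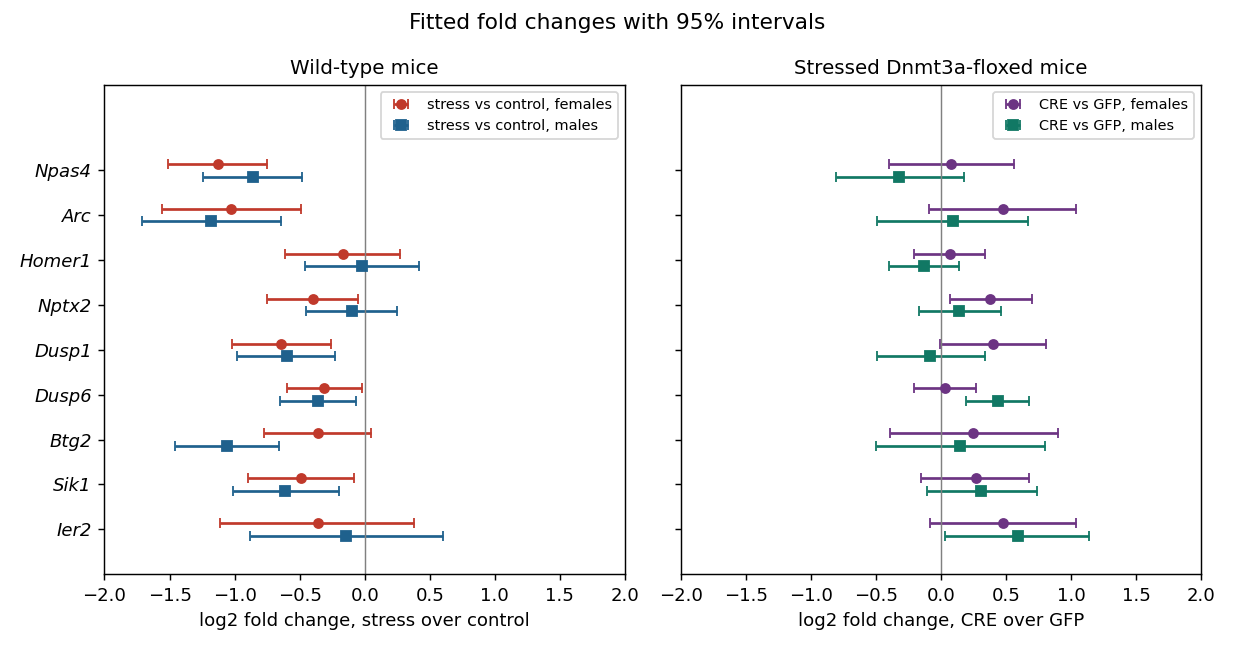
Fitted log2 fold changes (points) with 95% intervals (bars) for each gene, stress over control in wild-type mice on the left and CRE over GFP in stressed floxed mice on the right, with females above males for each gene and a line at 0. All 18 stress estimates lay below 0, and their intervals stayed below 0 for Npas4, Arc, Dusp1, Dusp6 and Sik1 in both sexes, while most CRE intervals crossed 0.

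Whether stress acted differently in the sexes was tested as an interaction, female minus male. edgeR called 0 of the 9 genes and 0.0% of all genes, and DESeq2 and limma-voom also called 0. Btg2 was the gene of the 9 with an unadjusted p below 0.05 (1.19% of genes), with a difference in log2 change of 0.70 (SE 0.26, 95% interval 0.13 to 1.27, adjusted p = 1), and of 0.57 (SE 0.29) with the choroid plexus covariate. For the other 8 genes the difference lay between -0.30 and 0.15, with intervals that included 0. Between the sexes at large in the wild-type experiment, edgeR called 0 of the 9 (0.0393% of genes), as did DESeq2 and limma-voom, and Npas4 was higher in females at an unadjusted p of 0.0169 (3.33% of genes; 19.4 ± 8.67 CPM in females against 14.8 ± 4.92 CPM in males, SD, n = 6 each, adjusted p = 0.971).

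In stressed floxed mice the question was whether losing Dnmt3a changes these genes. Dnmt3a itself was at 143, 137 and 138 CPM in CRE males against 182, 164 and 171 CPM in GFP males, and at 155, 150 and 140 CPM in CRE females against 162, 169 and 155 CPM in GFP females. It fell in males (log2 -0.30, SE 0.06, adjusted p = 0.0149) and did not pass in females (log2 -0.12, SE 0.06, adjusted p = 0.829), where the groups overlapped. The gene count also takes in exons outside the deleted part. CRE males also had more cortical RNA than GFP males, and with the cortical score as a covariate 0 genes were called there, Dnmt3a included. That score was 1.463 to 2.435 in CRE males and at most 0.376 in the other floxed libraries, so it nearly marks the group. The loss of calls in that fit therefore does not separate deletion from tissue makeup. The part of tissue makeup in the male Dnmt3a difference was not tested further. Among the 9 activity genes, Dusp6 was the 1 that passed, higher in CRE males. The other 8, Npas4 and Arc among them, did not pass in either sex, and of these only Sik1 in males had groups that did not overlap.

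In females, edgeR, DESeq2 and limma-voom each called 0 of the 9 genes (0.0% of genes in edgeR). The fold change was positive for 9 of 9, against 50.1% of genes, and 0 of 9 had all CRE libraries above all GFP libraries (6.5% of genes). That shared sign leaned on CRE female library 2. Arc was at 65.3, 126 and 60.4 CPM in CRE females against 53.2, 72.5 and 54.9 CPM in GFP females, so that the other CRE libraries lay within the GFP range. Arc's log2 change of 0.48 (SE 0.25, adjusted p = 0.859) became 0.06 (SE 0.14) without that library. Btg2 was at 11.8, 25.9 and 10.5 CPM in CRE females against 11.4, 15.9 and 12.8 CPM in GFP females, and its log2 change of 0.25 (SE 0.29) became -0.27 (SE 0.14). Npas4 (0.08 with, -0.11 without), Sik1 (0.27 with, -0.06 without) and Dusp6 (0.03 with, -0.06 without) also turned negative, and Dusp1 went to 0.17, against 0.40 with the library.

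Nptx2 did not depend on that library. It was at 22.02, 17.99 and 21.5 CPM in CRE females against 14.7, 18.2 and 14.3 CPM in GFP females, where library 2 of each group met. Its log2 change was 0.38 (SE 0.14, 95% interval 0.07 to 0.70, adjusted p = 0.783), and 0.46 (SE 0.16, adjusted p = 0.631) without CRE female library 2. It was the 1 of 9 genes higher at an unadjusted p below 0.05 in females (3.89% of genes). Npas4 was at 27.1, 32.2 and 18.1 CPM in CRE females against 22.5, 28.3 and 22.3 CPM in GFP females, with full overlap. Homer1 averaged 186 ± 16.7 CPM in CRE females and 178 ± 14.6 CPM in GFP females (SD, n = 3 each), and its interval of -0.21 to 0.34 spanned 0.

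In males, Dusp6 rose to 31.3, 28.3 and 26.9 CPM in CRE mice, against 21.96, 20.9 and 21.1 CPM in GFP mice, without overlap. The log2 change was 0.44 (SE 0.11, 95% interval 0.19 to 0.68, adjusted p = 0.0461), in a comparison where 4.96% of all genes were called. Of the 9 genes, 2 were higher at an unadjusted p below 0.05 (Dusp6 and Ier2, against 13.9% of genes), 2 were higher without overlap (Dusp6 and Sik1, against 14.7%), and 6 had a positive fold change (50.9%). With 9 genes, these counts stand near the background. The same CRE males were the libraries with high cortical and choroid plexus markers, and 12 of the 15 cortical markers were called higher there. With the cortical score as a covariate the Dusp6 log2 change was 0.36 (SE 0.28, adjusted p = 1), with the choroid plexus score 0.46 (adjusted p = 0.182), and in limma-voom 0.43 (adjusted p = 0.0544). Since every CRE male library had more cortical RNA than every GFP male library, deletion and tissue makeup cannot be told apart for this gene.

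The Dusp6 call was also close to its threshold. It was kept in 4 of 12 refits that left out 1 library, with the log2 change between 0.37 and 0.48. The adjusted p was 0.118 without CRE male library 1, 0.0947 without CRE male library 2, 0.101 without GFP male library 1, 0.143 without GFP male library 2 and 0.132 without GFP male library 3. It was 0.0564 without CRE female library 3, 0.0569 without GFP female library 1 and 0.0539 without GFP female library 3. These female libraries enter because all floxed groups were fitted together.

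Npas4 and Arc did not differ beyond their spread in CRE males. Npas4 was at 15.2, 13.2 and 13.1 CPM in CRE males against 12.4, 19.0 and 20.2 CPM in GFP males (log2 -0.32, 95% interval -0.81 to 0.18). Arc was at 40.5, 34.7 and 42.3 CPM in CRE males against 33.1, 40.2 and 37.1 CPM in GFP males (log2 0.09, -0.49 to 0.67). Dusp1 averaged 14.6 ± 1.06 CPM in CRE males and 15.3 ± 2.15 CPM in GFP males (SD, n = 3 each), and its log2 change of -0.08 was 0.02 without GFP male library 3. Sik1 was at 15.1, 18.2 and 16.1 CPM in CRE males against 14.0, 12.7 and 13.1 CPM in GFP males, apart but within the error of the fit (log2 0.31, SE 0.19, adjusted p = 0.340). Ier2 was at 1.77, 1.92 and 1.35 CPM in CRE males against 1.39, 0.875 and 1.10 CPM in GFP males (log2 0.59, SE 0.25, adjusted p = 0.178).

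**Figure D3:**
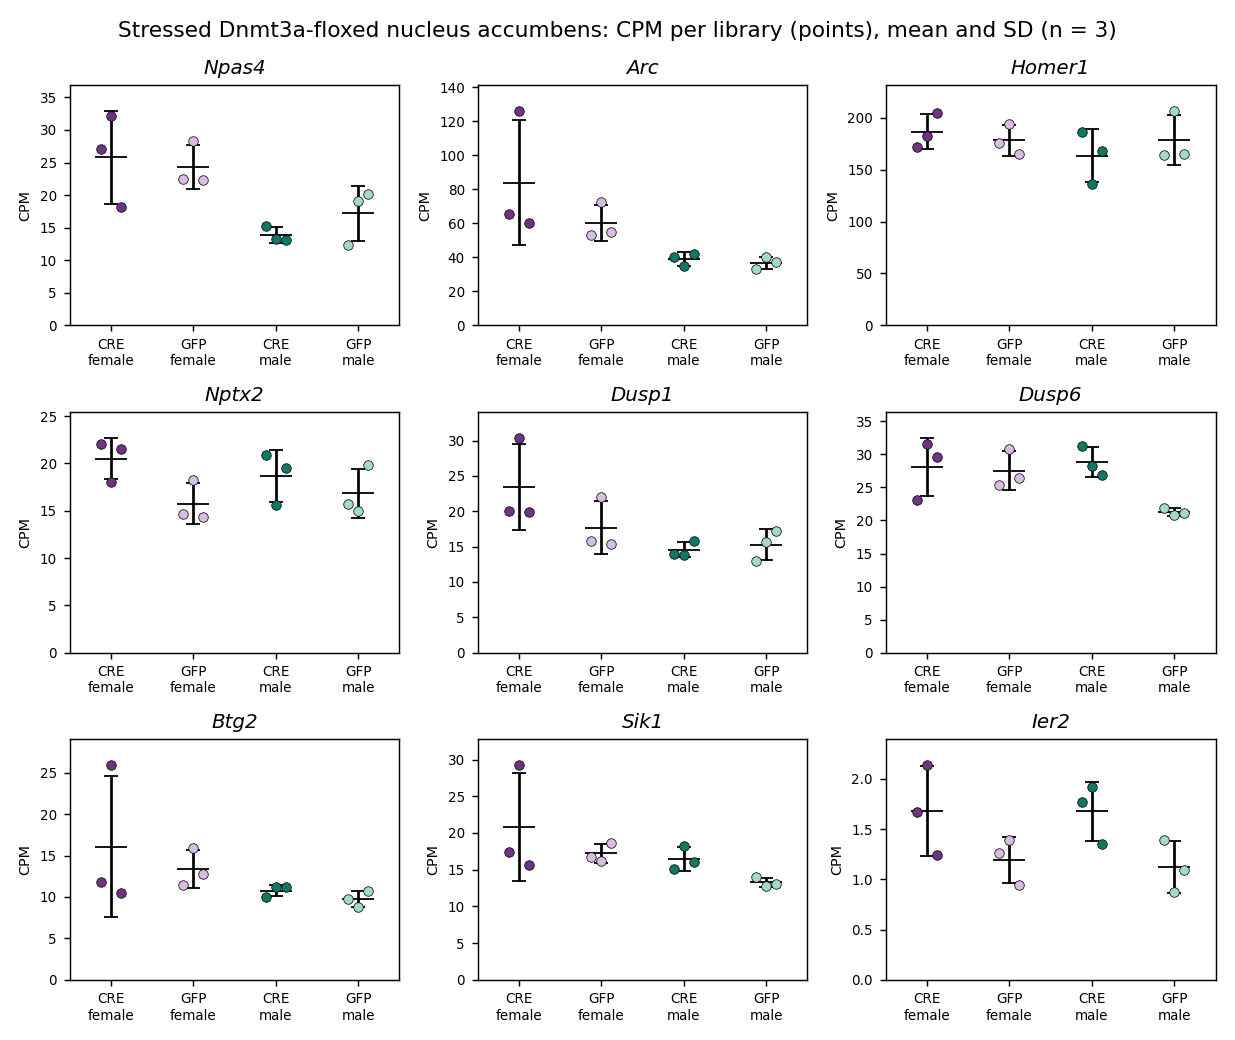
Levels of the 9 genes in CPM (linear axis from 0) in stressed Dnmt3a-floxed nucleus accumbens, with CRE females, GFP females, CRE males and GFP males from left to right; each point is a library, and bars are the mean and SD of 3. Dusp6 separated in males (26.9 to 31.3 CPM in CRE males, 20.9 to 21.96 CPM in GFP males), and 1 CRE female library lay far above the rest in Arc (126 CPM) and Btg2 (25.9 CPM).

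Averaged over the sexes, edgeR, DESeq2 and limma-voom called 0 of the 9 genes (1.42% of genes in edgeR), and 3 were higher at an unadjusted p below 0.05 (Nptx2, Dusp6 and Ier2, 9.15% of genes). Their log2 changes were 0.26 (SE 0.10, adjusted p = 0.264), 0.23 (SE 0.08, adjusted p = 0.195) and 0.53 (SE 0.18, adjusted p = 0.194). The interaction with sex gave 0 of the 9 genes (0.0114% of genes), and 0 in DESeq2 and limma-voom. Dusp6 was the gene with an unadjusted p below 0.05, at -0.41 (SE 0.16, adjusted p = 0.224), where 17.5% of all genes had such a p.

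A sex difference stood out in the floxed mice. Arc averaged 72.1 ± 27.5 CPM in females and 38.0 ± 3.61 CPM in males, and Npas4 25.1 ± 5.06 CPM in females and 15.5 ± 3.32 CPM in males (SD, n = 6 each). The log2 difference was 0.90 (SE 0.18, adjusted p = 0.243) for Arc and 0.69 (SE 0.16, adjusted p = 0.288) for Npas4. Both genes were above the males without overlap within the CRE groups and within the GFP groups, 2 of 9 genes against 0.369% of all genes. Fold changes were positive for 9 of 9, against 8678 of all 17597 genes, though Nptx2 (0.02), Ier2 (0.04) and Homer1 (0.09) were nearly level. Because the 9 genes were chosen with earlier results of these data known, these counts are no independent evidence of direction. Of the 9, 5 (Npas4, Arc, Dusp1, Btg2 and Sik1) had an unadjusted p below 0.05 (2.91% of genes). edgeR called 0 of the 9 (0.0682% of genes), limma-voom 0 and DESeq2 2 (Arc, adjusted p = 3.18e-05, and Npas4, adjusted p = 0.00263). Without CRE female library 2 the difference was smaller in all 5, at 0.70 for Arc (SE 0.09), 0.60 for Npas4, 0.34 for Dusp1, 0.26 for Btg2 (against 0.51 with it) and 0.20 for Sik1 (against 0.35 with it). Of these edgeR called Arc (adjusted p = 0.0266), whose spread was then smaller.

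The gap was present in the GFP groups too. There Arc was at 53.2, 72.5 and 54.9 CPM in females against 33.1, 40.2 and 37.1 CPM in males, and there the cortical markers summed to 442 to 478 CPM in females against 387 to 440 CPM in males. Slc17a7 overlapped there, at 20.8, 5.2 and 2.15 CPM in females and 1.29, 2.76 and 15.3 CPM in males. Over both viruses, 12 of 15 cortical markers were lower in females, with a median log2 difference of -1.04. Of these, 9 had an unadjusted p below 0.05 (663 of all 17597 genes were lower at that p). With the cortical score as a covariate the difference over both viruses was 0.55 (SE 0.26, adjusted p = 1) for Arc and 0.53 (SE 0.26, adjusted p = 1) for Npas4. Endothelial and mural markers also differed, with 10 of 10 positive, 8 at an unadjusted p below 0.05 (2.91% of genes) and a median log2 difference of 0.22. They summed to 269.9 to 289.6 CPM in CRE females and 266.8 to 312.7 CPM in GFP females, against 228.5 to 247.1 CPM in CRE males and 236 to 252 CPM in GFP males. Medium spiny neuron markers were positive for 14 of 14 (median 0.15), with none at an unadjusted p below 0.05. The part of these markers in the sex difference was not tested. In stressed wild-type mice Arc was at 38.5 to 63.9 CPM in females against 42.0 to 52.3 CPM in males, overlapping. Genotype, virus and depth all differ between the experiments, and the difference between them was not tested.

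Within groups, some of the genes varied together. After each group's mean was removed, Pearson's r of log2 CPM over the 24 libraries was 0.82 between Arc and Dusp1, 0.81 between Arc and Sik1 and 0.60 between Npas4 and Arc. Homer1 ran against Sik1 (-0.62 over all, -0.80 in wild-type and -0.41 in floxed libraries), while with Arc it was at -0.69 in wild-type and 0.25 in floxed libraries. Nptx2 was close to unrelated to Npas4 (0.08). The values also differed between the experiments for Arc with Btg2, with r of 0.02 over the 12 wild-type and 0.89 over the 12 floxed libraries. For that pair r was 0.55 over all 24 libraries and 0.14 over the 23 without CRE female library 2. Over those 23, r was 0.74 for Arc with Dusp1, 0.68 for Arc with Sik1 and 0.47 for Npas4 with Arc. The points share libraries and depth, so these values are a description.

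**Figure D4:**
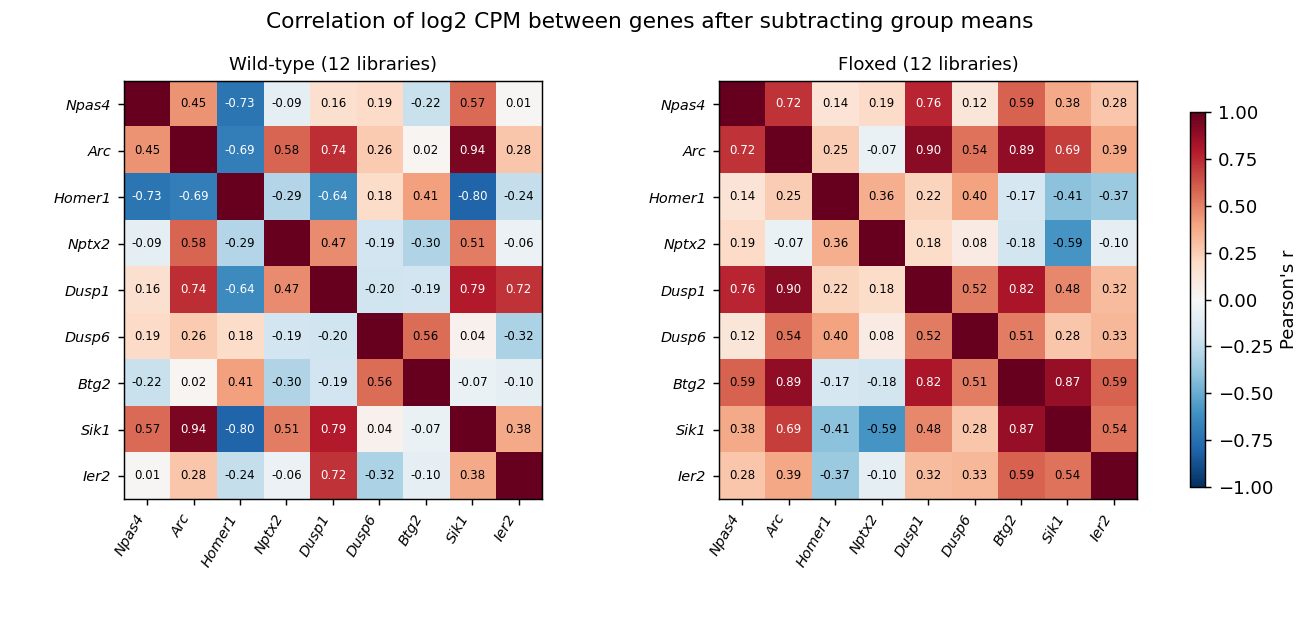
Pearson's r between pairs of the 9 genes, computed from log2 CPM after each group's mean was subtracted, over 12 wild-type libraries (left) and 12 floxed libraries (right); colour runs from -1 (blue) to 1 (red). Arc, Dusp1 and Sik1 form a block of high values in wild-type mice (0.74 to 0.94), and in floxed mice Btg2 joins Arc (0.89) and Dusp1 (0.82).

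Fos was the gene most like both Npas4 and Arc over the libraries. Among 14912 genes tested in both experiments, ranked by the mean of the correlation over the 12 wild-type and that over the 12 floxed libraries, Npas4 was nearest to Fos (mean r 0.85), then to Sik2 (0.80), Egr2 (0.80), Egr1 (0.78) and Nr4a1 (0.76). For Arc the order was Fos (0.94), Egr2 (0.92), Egr1 (0.90), Arl4d (0.88) and Nr4a1 (0.88). Nptx2 had other neighbours, with Dusp14 (0.82), Inka2 (0.82), Wasf1 (0.75), Grasp (0.74) and Brms1 (0.74) first. Dusp6 was nearest to Ccn1 (0.75), Eya1 (0.75), Neurl3 (0.73), Fos (0.73) and Birc3 (0.72). These correlations include the differences between groups.

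Most other activity-induced transcription factors also had lower levels under stress, though 1 of them passed the test. Of 21 such genes 19 were tested in wild-type mice, and their fold changes were negative for 17 of 19 in females (median log2 -0.58), 18 of 19 in males (median -0.35) and 19 of 19 on average (median -0.48). At an unadjusted p below 0.05, 9 of 19 were lower in females (0.931% of all genes), 6 in males (1.88%) and 10 on average (1.86%). Fos fell to 6.43 ± 0.450 CPM in stressed males, against 21.1 ± 5.58 CPM in control males (SD, n = 3 each; log2 -1.71, SE 0.21, adjusted p = 0.0220), and was the 1 called in males and on average (log2 -1.47, adjusted p = 0.00234). As the 1 gene called in males, it lost that call in limma-voom, in the 2-group fit, with either marker score, and in 6 refits that left out 1 library (any stressed male, number 2 or 3 of the control males, or number 2 of the control females), where 0 genes were called. In females Fos had a log2 change of -1.23 (SE 0.21, adjusted p = 0.354), Egr2 of -1.05, Nr4a1 of -1.0 and Nr4a3 of -0.82, each with an adjusted p of 1. The list was drawn up with results on some of these genes known, so its count is no independent evidence of direction.

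In the other lists the medians lay closer to 0. Of 24 other effectors of activity, 20 were negative in females (median -0.18) and 15 in males (median -0.08), with none called. Arl4d, a small GTPase, had the smallest p on average, at 14.3 ± 3.14 CPM in stressed mice and 22.9 ± 4.42 CPM in controls (SD, n = 6 each; log2 -0.68, SE 0.16, adjusted p = 0.888). Among the 23 of 24 paralogs of the 9 genes that were tested none was called. Sik2 (log2 -0.32, SE 0.10), Tob2 (-0.43, SE 0.13), Tob1 (-0.32, SE 0.12) and Dusp14 (-0.41, SE 0.17) had the smallest p on average, each with an adjusted p of 1. The 15 upstream activators and dimer partners, which include Creb1, Srf, Mef2 and Arnt genes, had medians of -0.08 in females and -0.02 in males and none called. Srf itself averaged 75.0 ± 13.6 CPM under stress and 88.96 ± 23.9 CPM in controls (log2 -0.24, SE 0.17). Of the 12 binding partners of the synaptic effectors none was called, and Itpr1 had the smallest p (1227 ± 103 CPM under stress, 1411 ± 48.5 CPM in controls, log2 -0.20, SE 0.08, adjusted p = 1).

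In CRE males, where 4.96% of all genes were called, edgeR called 3 of 21 transcription factors, 3 of 24 effectors and 4 of 23 paralogs. Among transcription factors Jun (29.9 ± 3.01 against 15.2 ± 0.672 CPM in GFP males, log2 0.98, adjusted p = 0.00236), Nr4a2 (10.7 ± 4.62 against 0.954 ± 0.199 CPM, log2 3.47, adjusted p = 0.0108) and Junb (25.0 ± 4.60 against 14.3 ± 1.95 CPM, log2 0.80, adjusted p = 0.0494) rose. Among effectors Bdnf (log2 2.83, adjusted p = 0.00272), Nrn1 (log2 4.36, adjusted p = 0.0173) and Ptgs2 (log2 0.75, adjusted p = 0.0432) did. Among paralogs Nptx1 (log2 2.13, adjusted p = 0.0108), Dusp7 (0.47, 0.0154), Ier5l (1.71, 0.0229) and Npas1 (2.92, 0.0277) did, each as log2 change and adjusted p. In the same libraries 12 of 15 cortical markers were called higher. With the cortical score as a covariate 0 of all genes were called in CRE males and 0 on average. Since that score nearly marks the CRE males, the loss of these calls decides nothing about tissue makeup. In males, deletion and tissue makeup cannot be told apart for these genes. In CRE females none of these lists held a call. Their cortical markers summed to 428.8 to 539.2 CPM, against 442.1 to 477.5 CPM in GFP females. Log2 changes of the paralogs ran from -1.35 to 1.71 in females, with 0.448 as the smallest adjusted p in edgeR. At an unadjusted p below 0.05, 9 of 21 transcription factors, 6 of 24 effectors and 3 of 23 paralogs were higher there (3.89% of all genes), and 2 of the paralogs were lower. Of the transcription factors, 9 were higher without overlap (6.5% of all genes). The values in females include CRE female library 2, which stood apart in several activity genes. Among the transcription factors Egr4 (15.3 ± 4.70 against 6.76 ± 1.84 CPM in GFP females, log2 1.17, adjusted p = 0.448), Junb (log2 0.94, adjusted p = 0.452), Jun (log2 0.41, adjusted p = 0.509) and Egr3 (log2 0.43, adjusted p = 0.621) had the smallest p there. Averaged over the sexes, where 1.42% of all genes were called, Jun (log2 0.70, adjusted p = 0.00370), Junb (0.87, 0.0225), Egr4 (1.02, 0.0232), Bdnf (1.5, 0.016), Gadd45b (0.58, 0.0487) and Ier5l (1.71, 0.0125) were called higher, and the lists of upstream activators and binding partners held none.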

How the data were processed

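The authors deposited whole-number read counts by Ensembl gene, unscaled. Per the submitters' processing notes, Bowtie2 2.1.0, TopHat2 2.0.9 and HTSeq 0.6.0 were used, with the builds NCBIM37 and mm9. The strand setting is not given in the sources used here. Symbols and exon lengths came from GENCODE M21 (GRCm38), by Ensembl ID.

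Each experiment was fitted apart in R 4.3.3 with edgeR 4.0.16 (filterByExpr, TMM, robust quasi-likelihood F test), leaving 15249 wild-type and 17597 floxed genes. P-values were Benjamini-Hochberg adjusted over all genes tested and called below 0.05. CPM is edgeR's, and correlations used log2 CPM with a prior count of 2. The fit was run on simulated counts with known changes in 200 genes. These counts had the same spread for every gene and no replicate or tissue structure, so that run does not cover such features of the data. DESeq2 1.42.0, limma 3.58.1 (voom), another scaling, no filter, 2-group fits, marker covariates, a replicate block and leaving out each library were alternatives.

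Same-numbered libraries correlated at 0.334 to 0.592 in wild-type females, 0.086 to 0.341 in wild-type males, -0.452 to 0.086 in floxed females and -0.109 to 0.109 in floxed males. The rule that every pair exceeds 0.1 was met by the wild-type females alone. It does not settle pairing, since the labels do not say what a shared number marks. Unlike numbers also correlated, at up to 0.462 in floxed females.

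The named genes are all 9 members, the 5 genes most like Npas4, Arc, Nptx2 and Dusp6, and from each further list every called gene or else up to 4 of smallest p. The members and lists were chosen with earlier results of these data known.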

Additional observations from a re-analysis of the deposited data

How the results depend on the processing

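Groups of 3 libraries leave adjusted p-values near the threshold and sensitive to the setting, while the fold changes of Npas4, Arc, Dusp1, Dusp6, Btg2 and Sik1 under stress were negative under every alternative run. Where a call changed, the cause was not tested.

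With DESeq2, the genes called were 2 for stress in females, 4 in males and 11 on average (members 1, 2 and 4), 13 for wild-type sex, 34 for CRE in females, 1794 in males and 650 on average, 609 for the CRE interaction and 89 for floxed sex (members 2). With no filter they were 5, 3 and 12 for stress (members 2, 2 and 4), 14 for wild-type sex and 43 for the CRE interaction.

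With the replicate block, stress gave 5 genes in females, 4 in males and 13 on average (members 2, 2 and 5). In males the block called Arc (log2 -1.17, adjusted p = 1.95e-04) and Btg2 (log2 -1.04, adjusted p = 0.0303), and on average also Dusp1 (-0.62, 0.00313) and Sik1 (-0.54, 0.0305). CRE gave 191 genes in males, 34 on average and 0 for the interaction with the block. It changed no other call of a member.

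With limma-voom, stress in males gave 0 genes, the CRE interaction 0, and CRE in males 0 members. In 2-group fits, stress in males gave 0 genes and CRE in males 551. The cortical score gave 0 genes for stress in males, 1 on average (members 0), 0 genes and 0 members for CRE in males, 0 on average, 0 for the CRE interaction and 7 for floxed sex. The choroid plexus score gave 0 genes for stress in males, 36 genes and 0 members for CRE in males, and 0 for the CRE interaction. The sign for CRE turned under the cortical score for Npas4 (0.07 in males and on average) and Dusp1 (0.30 in males), and under the choroid plexus score for Homer1 (0.14 in males, 0.10 on average) and Btg2 (-0.05 in males).

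Leaving out 1 library at a time gave 0 to 1 genes for stress in females (members 0 to 1), 0 to 1 in males and 1 to 3 on average (members 0 to 2). For CRE it gave 93 to 1303 genes in males (members 0 to 1), 17 to 401 on average and 0 to 500 for the interaction, and for floxed sex 9 to 92 (members 0 to 1). Log2 changes that changed sign ranged, for stress, from -0.34 to 0.09 (Homer1, females), -0.22 to 0.08 (Homer1, males), -0.20 to 0.04 (Homer1, average) and -0.19 to 0.01 (Nptx2, males). For CRE in females they ranged from -0.11 to 0.28 (Npas4), -0.06 to 0.15 (Dusp6), -0.27 to 0.49 (Btg2), -0.06 to 0.43 (Sik1) and -0.01 to 0.13 (Homer1). For CRE in males Dusp1 ranged from -0.18 to 0.02, and on average Btg2 from -0.06 to 0.32 and Homer1 from -0.08 to 0.03.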
